A study of Mus musculus with 74 samples.

Results

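Adrenomedullin (Adm), apelin (Apln), their receptors Calcrl and Aplnr, and the receptor activity-modifying proteins Ramp1, Ramp2 and Ramp3 were followed over every group of a mouse array study of 3 agents. These 7 genes were chosen by symbol, as the ligands and receptors of a pair of vascular peptide systems. Earlier results of these data were known when they were chosen. They are 7 of the 18193 genes and 13 of the 34945 single-symbol probe sets measured on 74 arrays. All mice were male B6C3F1 mice, a hybrid strain, killed after 15 or 29 days of dosing, and no age was given. White adipose tissue came from mice given fenretinide, a synthetic retinoid, at 500 mg/kg in the diet, in groups of 3 mice (day 15) or 4 mice (day 29), each beside as many vehicle mice. Mice given troglitazone gave brown adipose tissue and liver, with 5 treated and 5 vehicle mice per tissue and day. Troglitazone, an agonist of the nuclear receptor PPAR gamma, was given orally at 1200 mg/kg. Liver also came from mice given Elmiron (pentosan polysulfate, a semi-synthetic sulfated polysaccharide) orally at 1000 mg/kg, again 5 treated and 5 vehicle mice per day. Doses were about 2 times the highest of the carcinogenicity studies, and the time course asked when proliferative or hypoxic changes arise in tissues that develop hemangiosarcoma, a malignant tumour of endothelial cells. Each agent, dose and route therefore went with its own tissue or study, and no genotype differed between groups. Mouse numbers below are those of each study, so that mouse 95 of white fat and mouse 95 of brown fat are different animals.

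Adrenomedullin is a secreted peptide that acts on endothelium and smooth muscle. Its receptor is Calcrl, a G protein-coupled receptor that reaches the cell surface and gains its ligand preference only in a complex with a RAMP: with Ramp2 or Ramp3 it binds adrenomedullin, and with Ramp1 it binds calcitonin gene-related peptide. Apelin is a secreted peptide of endothelial cells and adipocytes that acts on the G protein-coupled receptor Aplnr, which marks venous and sprouting endothelium, and both Adm and Apln are known targets of the hypoxia-inducible factors.

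With the probe set that stood for each gene, its brightest on average, the 3 members that passed a test of treated against vehicle mice were Adm, Apln and Ramp3. Aplnr passed in white fat with its other probe set only. The 250 bases before their RefSeq start (mouse build GRCm38.p6, 5′ to 3′ on the strand of the gene) are printed because all 3 rose in the same tissue and Adm and Apln are known hypoxia targets. Capitals mark matches to the core of the hypoxia response element, searched as ACGTG and GCGTG on both strands.
Adm, chr7:110627407-110627656, plus strand: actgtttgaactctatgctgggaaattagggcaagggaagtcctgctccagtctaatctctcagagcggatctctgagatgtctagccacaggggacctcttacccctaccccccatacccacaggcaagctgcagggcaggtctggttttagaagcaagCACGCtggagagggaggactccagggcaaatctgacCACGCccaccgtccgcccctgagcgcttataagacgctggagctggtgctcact
Ramp3, chr11:6658283-6658532, plus strand: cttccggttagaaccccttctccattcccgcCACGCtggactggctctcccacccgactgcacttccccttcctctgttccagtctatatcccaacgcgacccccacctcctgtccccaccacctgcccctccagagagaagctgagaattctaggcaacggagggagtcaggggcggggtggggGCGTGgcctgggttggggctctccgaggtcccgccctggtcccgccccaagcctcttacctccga
Apln, chrX:48034854-48035103, minus strand: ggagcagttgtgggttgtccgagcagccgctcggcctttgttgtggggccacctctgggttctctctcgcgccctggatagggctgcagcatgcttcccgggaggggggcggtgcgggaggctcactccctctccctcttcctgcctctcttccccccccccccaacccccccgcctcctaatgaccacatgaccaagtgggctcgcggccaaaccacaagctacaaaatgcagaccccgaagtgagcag
The stretch before Adm held GCGTG on the opposite strand at bases 90 to 86 and 54 to 50 before the start, where it reads CACGC. The stretch before Ramp3 held it on the same strand at bases 65 to 61 and on the opposite strand at bases 219 to 215. Neither form was found before Apln, nor in the same window of Calcrl and Ramp1, which were also in the RefSeq promoter table (5 of the 7 genes matched it). GCGTG occurred in 28.1% of 32817 mouse promoter windows of this length, ACGTG in 16.6% and either form in 38.6%. AGGTCA, the core bound by many nuclear receptors, was found in none of the 5 windows and in 14.0% of all. GC content was 56.8% before Adm and 65.2% before both Ramp3 and Apln, against a median of 52.4% over all windows. A match of letters is a description of the window and shows no binding.

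Some libraries carried transcripts that go against their tissue label. In brown adipose tissue of day 29, vehicle mouse 82 had a log2 intensity of 5.91 for Ucp1, the uncoupling protein that defines brown fat, and troglitazone mouse 95 had 8.10, where the other 18 brown fat libraries had 14.91 to 15.11. Zic1, a brown fat lineage gene, was at 4.05 and 4.07 in these libraries and at 7.81 to 8.80 in the rest, and Alb, the liver's albumin gene, reached 14.61 in mouse 82. Results in brown fat are therefore given also without both where their values move. In white fat of day 29, Ucp1 was at 13.44 and 11.69 in vehicle mice 85 and 86 and at 12.82 and 14.66 in fenretinide mice 91 and 93, against 5.13 to 7.56 in the other 4. White fat results of that day are given without these 4 mice where a call is lost or a value moves by over 1.5 times. Liver transcripts were also high in some white fat of day 29: Alb was at 13.93 and 11.60 in vehicle mice 86 and 85 and at 13.99 and 12.22 in fenretinide mice 95 and 93, against 8.23 to 9.67 in the other 4.

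In white fat, fenretinide was accompanied by higher RNA of both ligands and, on day 15, of Ramp3. An Aplnr probe set other than the one that stood for the gene was also called higher on day 15, over all single-symbol probe sets. Ramp3 rose 5.22-fold on day 15 and did not pass on day 29, Apln rose 2.31-fold on day 15 and stood 2.09 times as high on day 29 without passing, and Adm rose 2.72-fold on day 29. Values are log2 of the deposited intensity, changes are treated minus vehicle with the standard error of the limma fit, and a gene was called at a Benjamini-Hochberg adjusted p below 0.05 over all 18193 genes. On day 15 2 of the 7 members were called, both higher, where 3.95% of all genes were called and 3.27% were called higher. On day 29 1 member was called, higher, where 1.34% of all genes were called and 0.412% were called higher. The median change of the 7 was 0.74 on day 15 and 0.25 on day 29, beside medians of -0.04 and -0.02 over all genes tested. The vehicle and treated mice did not overlap for 4 members on day 15, where 27.9% of all genes did not overlap, and for 3 members on day 29, where 8.75% did not.

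**Figure D1:**
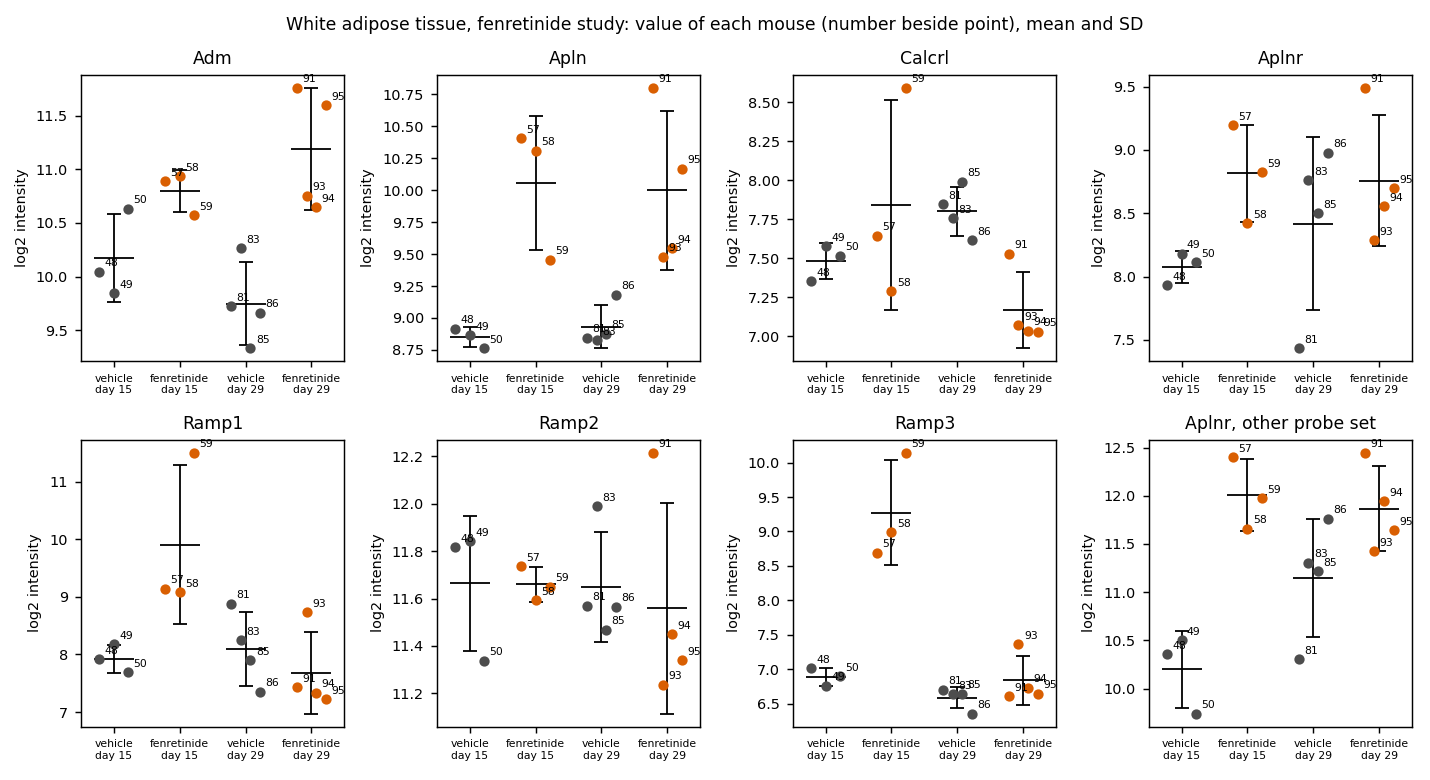
White adipose tissue: log2 intensity (y axis) of each mouse (numbered point) in the 4 groups of the fenretinide study (x axis), with the group mean and SD, for the 7 genes and the other Aplnr probe set. Ramp3 of the 3 fenretinide mice of day 15 lies at 8.69 to 10.14, above the vehicle range of 6.76 to 7.01, while on day 29 all 8 mice lie at 6.36 to 7.36.

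Among the ligands, Adm of the vehicle mice of day 29 stood at 9.73, 10.27, 9.33 and 9.66, and that of the fenretinide mice at 11.76, 10.75, 10.64 and 11.60. All 4 treated mice were above all 4 vehicle mice, with mice 91 and 95 the highest. The mean rose from 9.75 ± 0.39 (SD, n = 4) to 11.19 ± 0.57 (SD, n = 4), a change of 1.44 ± 0.27 (SE) with a 95% interval of 0.85 to 2.03 and an adjusted p of 0.0289 (limma). The other Adm probe set moved by 1.34 ± 0.27, with an adjusted p of 0.0346 over all single-symbol probe sets, of which 1.16% were called. Without the 4 mice of day 29 with the highest Ucp1 the change was 1.13 with an adjusted p of 0.226. The call was also lost without vehicle mouse 81 (0.0709), vehicle mouse 85 (0.0821) or fenretinide mouse 95 (0.0702).

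On day 15 Adm stood at 10.04, 9.85 and 10.63 in vehicle mice and at 10.89, 10.94 and 10.57 in fenretinide mice. Vehicle mouse 50 was higher than fenretinide mouse 59, so the groups overlapped. The change was 0.62 ± 0.32 with a 95% interval of -0.06 to 1.31 and an adjusted p of 0.301. The effect on day 29 was 0.82 ± 0.42 larger than that on day 15, a difference that did not pass (adjusted p = 0.371), and was 0.50 without those 4 mice, so a response on day 29 alone is not shown.

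Apln of the vehicle mice of day 15 stood at 8.92, 8.87 and 8.76, and that of the fenretinide mice at 10.41, 10.31 and 9.46. All 3 treated mice were above all 3 vehicle mice, with mouse 59 the lowest of the treated. The change was 1.21 ± 0.31 with a 95% interval of 0.53 to 1.88 and an adjusted p of 0.0492, just inside the threshold. The call was lost without any one of mice 48, 49, 50, 57 and 58 (adjusted p from 0.115 to 0.162), while without mouse 59 the change was 1.51 (adjusted p = 0.00824).

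On day 29 Apln stood at 8.84, 8.82, 8.88 and 9.18 in vehicle mice and at 10.80, 9.48, 9.54 and 10.17 in fenretinide mice. The groups again did not overlap, and mice 91 and 95, which had the highest Adm, also had the highest Apln. The change was 1.07 ± 0.27 with an adjusted p of 0.0724. It differed from that of day 15 by -0.14 ± 0.41 (adjusted p = 0.902).

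Of the receptors, Calcrl was called on neither day. It stood at 7.35, 7.58 and 7.52 in vehicle mice and at 7.64, 7.29 and 8.59 in fenretinide mice on day 15, a change of 0.36 ± 0.26 (adjusted p = 0.466). On day 29 it stood at 7.85, 7.75, 7.99 and 7.62 in vehicle mice and at 7.53, 7.07, 7.03 and 7.03 in fenretinide mice. With this probe set all 4 treated mice were below all 4 vehicle mice. The change was -0.64 ± 0.22 with an adjusted p of 0.185, and the difference between days was -0.995 ± 0.34 (adjusted p = 0.19). The other Calcrl probe sets overlapped on day 29, with changes of -0.12 and -0.05, and on day 15 they changed by 0.54 with no overlap (adjusted p = 0.343 over probe sets) and by -0.14.

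Aplnr had 2 probe sets that differed in the size of the change. With the brighter probe set over all arrays, which stood for the gene, the vehicle mice of day 15 were at 7.93, 8.18 and 8.11 and the fenretinide mice at 9.19, 8.42 and 8.83. The groups did not overlap, and the change was 0.74 ± 0.37 (adjusted p = 0.294). With the other probe set the vehicle mice were at 10.36, 10.50 and 9.74 and the fenretinide mice at 12.40, 11.66 and 11.97. That change was 1.81 ± 0.35, with an adjusted p of 0.0116 over all single-symbol probe sets, of which 3.26% were called on day 15. On day 29 the gene's probe set changed by 0.34 (adjusted p = 0.714) and the other by 0.72 ± 0.30 (0.293), with overlapping groups in both. Without the 4 mice with the highest Ucp1 the first was 0.53 (0.612). The difference between days was -1.09 ± 0.46 for the other probe set and did not pass (0.305).

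Among the RAMPs, Ramp3 had the largest change of the 7 genes. It stood at 7.01, 6.76 and 6.90 in the vehicle mice of day 15 and at 8.69, 8.99 and 10.14 in the fenretinide mice. Every treated mouse was at least 1 log2 unit above every vehicle mouse, and mouse 59 was the highest. The mean rose from 6.89 ± 0.13 (SD, n = 3) to 9.27 ± 0.77 (SD, n = 3), a change of 2.38 ± 0.30 with a 95% interval of 1.74 to 3.03 and an adjusted p of 5.16e-04. Without mouse 59 the change was 1.95, and with any 1 mouse left out the adjusted p stayed at or below 0.00383.

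On day 29 Ramp3 stood at 6.70, 6.64, 6.64 and 6.36 in vehicle mice and at 6.61, 7.36, 6.73 and 6.64 in fenretinide mice. Only mouse 93 was above the vehicle range of that day by more than 0.1, and the change was 0.25 ± 0.26 (adjusted p = 0.749). Without the 4 mice of day 29 with the highest Ucp1, mouse 93 among them, that change was 0.02 (0.991). The fenretinide effect of day 29 was 2.13 log2 units below that of day 15, a tested difference of -2.13 ± 0.40 with an adjusted p of 0.0182. Ramp3 was the only member called in this contrast, in which 1.33% of all genes were called and 1.27% were called lower. The call of the difference was lost without vehicle mouse 50 of day 15 (0.0561) and without the 4 mice of day 29 with the highest Ucp1 (-2.37, adjusted p = 0.0875).

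Ramp1 stood at 7.91, 8.18 and 7.69 in the vehicle mice of day 15 and at 9.14, 9.08 and 11.50 in the fenretinide mice. The groups did not overlap, but mouse 59 lay more than 2 log2 units above the other treated mice. The change was 1.98 ± 0.59 with a 95% interval of 0.71 to 3.26 and an adjusted p of 0.0847, and without mouse 59 it was 1.19 (0.184). With arrays weighted by their quality in limma it was 1.45 (0.0493) and was called. The other Ramp1 probe sets overlapped, with changes of 0.17 and -0.26. On day 29 Ramp1 ranged from 7.35 to 8.88 in vehicle mice and from 7.22 to 8.73 in fenretinide mice, a change of -0.41 (0.804), and the difference between days was -2.39 ± 0.78 (0.174). Without the 4 mice with the highest Ucp1 these were -1.28 (0.486) and -3.26 (0.161).

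Ramp2, the partner of Calcrl in the main vascular adrenomedullin receptor, was close to vehicle on both days. It ranged from 11.34 to 11.84 in vehicle mice and from 11.59 to 11.74 in fenretinide mice on day 15, and from 11.47 to 11.99 and 11.24 to 12.21 on day 29. The change was -0.01 ± 0.23 on day 15, with a 95% interval of -0.50 to 0.49, and -0.09 on day 29 (adjusted p = 0.992 and 0.905). Without the 4 mice with the highest Ucp1 the change of day 29 was -0.38 (0.456).

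Markers of epithelial cells moved with Ramp3 and Ramp1 on day 15. The mean level of 14 epithelial markers, relative to the vehicle mice of that day, was 2.38, 2.55 and 3.51 in fenretinide mice 57, 58 and 59 and -0.39 to 0.29 in vehicle mice. Of these markers 13 changed upward and 9 were called higher, where 3.27% of all genes were called higher. Among them were Prom1 by 5.48, the desmosome gene Dsp by 5.19, the claudin gene Cldn7 by 5.05 and the cadherin gene Cdh1 by 4.75. On day 29 0 of the markers were called and 4 lay above 0. Mouse 59, with the highest Ramp3 and Ramp1, also had the highest epithelial level, a pericyte and smooth muscle level of 1.64 and a skeletal muscle level of 1.25. Of 11 markers of epididymis and male accessory glands 0 were called on day 15. The part of these cell types in the result was not tested, and in bulk tissue more cells of a type and more RNA per cell cannot be told apart.

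Endothelial markers moved with the ligands to a smaller degree. Their mean level over 20 genes was 0.50, 0.24 and 0.34 in the fenretinide mice of day 15, against -0.18 to 0.12 in vehicle mice, and 0.63, 0.07, 0.32 and 0.28 in those of day 29, against -0.08 to 0.13. Called higher were Cd93 (1.07), Emcn (0.94) and Mmrn2 (0.61) on day 15 and the transcription factor genes Sox18 (0.98) and Sox17 (0.91) with Cd93 (0.97) on day 29, 3 of 20 on each day. Over all genes 3.95% were called on day 15 and 3.27% called higher, and 1.34% and 0.412% on day 29. The list's median change was 0.37 and 0.36. A list of 8 acute inflammation genes had 0 called on day 29, with a median of 1.34 and levels of 2.51, 1.28, 0.06 and 1.15 in mice 91, 93, 94 and 95. Of the other cell type lists, the pericyte genes Kcnj8 (1.01) and Abcc9 (0.71) were called higher on day 29 (2 of 10, list level -0.07 to 0.35 in fenretinide and -0.14 to 0.33 in vehicle mice). The adipocyte gene Lep, which encodes leptin, was called lower on that day (-2.74, 1 of 8, list level -0.55 to -0.37 against -0.05 to 0.08), as was the B cell gene Ighm (-1.81, 1 of 4). On day 15 the lymphatic gene Flt4 was called higher (0.74, 1 of 5) and the adipocyte lipase gene Pnpla2 lower (-0.41, 1 of 8). The part of these cell types and of inflammation in the ligands' result was not tested.

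Of the other genes of these pathways, those called in white fat were 2 of 60 on day 15 (3.33%, beside 3.95% of all genes) and 1 of 60 on day 29 (1.67%, beside 1.34%). Of 8 further genes of the adrenomedullin and calcitonin gene-related peptide family and its handling (among them Adm2, Calcr, the decoy receptor Ackr3 and the amidating enzyme Pam), 0 were called on either day (1 and 0 at an unadjusted p below 0.05 on days 15 and 29, limma). Of 7 further apelin genes (among them Apela and Furin) 0 were called (1 on each day at an unadjusted p below 0.05). Below the receptors, 22 genes of cyclic AMP and nitric oxide signalling held 1 call per day: Prkacb, a catalytic subunit of protein kinase A, rose by 0.49 ± 0.10 on day 15 (adjusted p = 0.0176), and Adcy7, an adenylyl cyclase, fell on day 29, with a change of -1.07 ± 0.20 (0.0274). Of 23 hypoxia targets other than Adm and Apln, 1 was called: Ankrd37 rose by 0.85 ± 0.19 on day 15 (0.0278), with a difference between days of -1.21 ± 0.26 (0.0371). The hypoxia list had a median change of 0.06 on day 15 and -0.03 on day 29. Vegfa, the endothelial growth factor gene on that list, changed by -0.54 on day 15 (0.243) and 0.30 on day 29 (0.582).

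**Figure D2:**
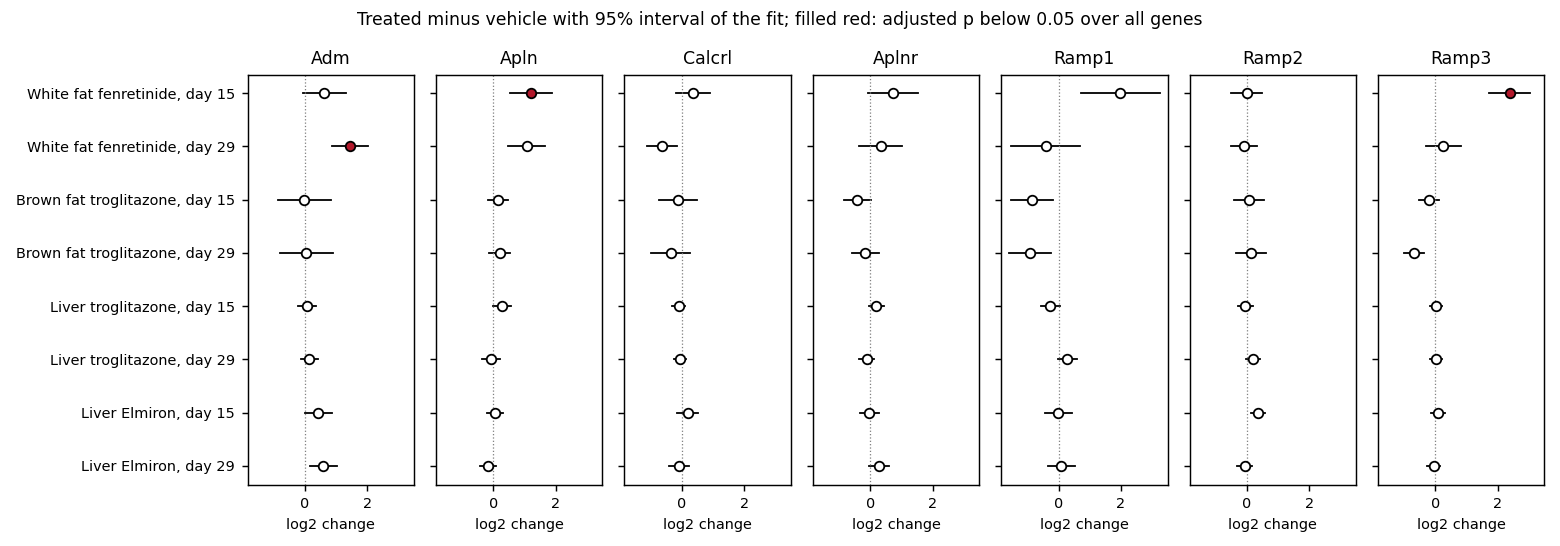
Change of each of the 7 genes (panels) in the 8 comparisons of treated with vehicle mice (rows), as log2 difference (x axis) with its 95% interval from the limma fit. Filled red points mark adjusted p below 0.05 over all genes: Apln and Ramp3 in white fat of day 15 and Adm in white fat of day 29.

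In brown fat, 0 of 7 members were called after troglitazone on either day (limma). Over all genes 0.0605% were called on day 15 and 0.055% on day 29. At an unadjusted p below 0.05 there was 1 member on day 15 and 2 on day 29. The share of all genes at an unadjusted p below 0.05 is not given, here or in the comparisons below. The members that stood apart, with the probe set that stood for each gene, were Ramp1 and Ramp3, both lower in treated mice. Vehicle and treated mice did not overlap for 1 member on each day, Ramp1 on day 15 and Ramp3 on day 29, where 3.25% and 0.759% of all genes did not overlap. Without mice 82 and 95, 0 members were again called on either day, while the share over all genes was 0.951% on day 15 and 1.09% on day 29.

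Ramp1 of the vehicle mice of day 15 stood at 9.69, 9.97, 10.13, 9.99 and 9.52, and that of the troglitazone mice at 9.23, 9.48, 9.09, 8.56 and 8.74. All 5 treated mice were below all 5 vehicle mice. The change was -0.84 ± 0.33 (adjusted p = 0.982), and -0.84 ± 0.21 (0.0724) without mice 82 and 95, which are of the other day and enter through the shared spread. On day 29 the vehicle mice stood at 9.24, 10.74, 9.55, 9.74 and 9.74 and the troglitazone mice at 9.40, 9.35, 9.34, 8.89 and 7.44, of which 9.24 was mouse 82 and 7.44 mouse 95. The change was -0.92 ± 0.33 (0.601), and -0.70 ± 0.23 (0.161) without both mice, when the groups did not overlap. The other Ramp1 probe sets changed less without both mice. On day 15 they moved by -0.21 and -0.02 (adjusted p = 0.834 and 0.977 over probe sets, limma). On day 29 they moved by -0.15 and -0.17 (0.748 and 0.303).

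Ramp3 of the vehicle mice of day 29 stood at 8.07, 8.03, 8.20, 8.05 and 8.07, and that of the troglitazone mice at 7.75, 7.84, 7.19, 7.42 and 6.79. The vehicle mice lay within 0.2 of each other, and all 5 treated mice were below them. The change was -0.69 ± 0.15 (adjusted p = 0.113), and -0.54 ± 0.13 (0.0590) without mice 82 and 95, where mouse 95 had the lowest value. On day 15 the change was -0.20, with treated mice at 7.66 to 8.07 and vehicle mice at 7.92 to 8.34. Without both mice Calcrl also did not overlap on day 29, at -0.27 ± 0.14 (0.367) against -0.36 with all mice, while its other probe sets changed by 0.10 and 0.07, so that 3 members did not overlap where 6.93% of all genes did not. A list of pericyte and smooth muscle markers lay at -0.60 to 0.40 in the troglitazone mice of day 29 and at -0.30 to 0.63 in vehicle mice, with Kcnj8 called lower among them (-0.52, adjusted p = 0.0416), and its part in the result was not tested.

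**Figure D3:**
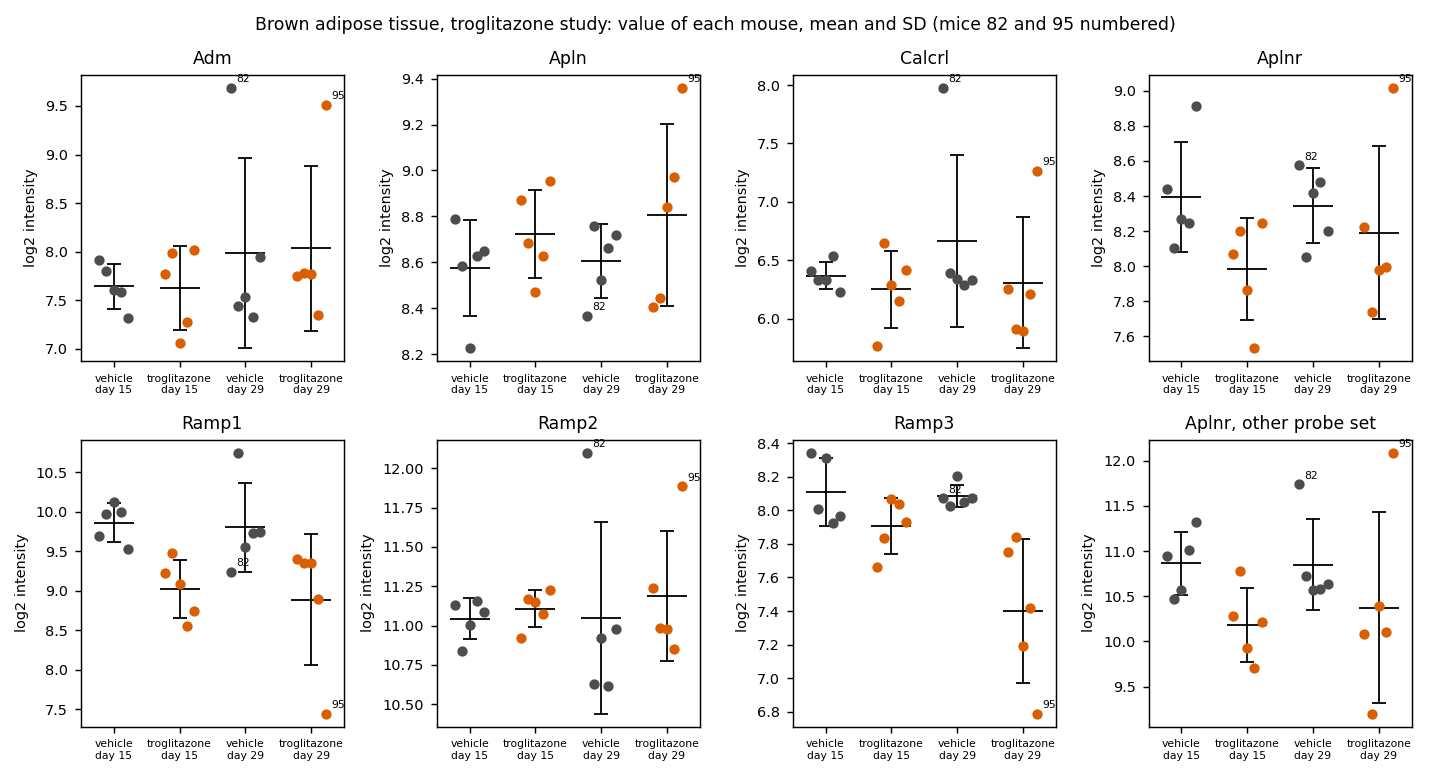
Brown adipose tissue: log2 intensity (y axis) of each mouse (point) in the 4 groups of the troglitazone study (x axis), with the group mean and SD, for the 7 genes and the other Aplnr probe set. Vehicle mouse 82 and troglitazone mouse 95 of day 29 lie far above their groups for Adm (9.69 and 9.51), Calcrl (7.98 and 7.27) and Ramp2 (12.10 and 11.88).

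For Adm, Calcrl and Ramp2 the highest value of each group of day 29 lay in the same pair of libraries, those of mice 82 and 95. Adm of day 29 was at 9.69 in mouse 82 and 9.51 in mouse 95, while the other 4 vehicle mice were at 7.33 to 7.95 and the other 4 troglitazone mice at 7.35 to 7.78. The change in Adm was -0.02 on day 15 and 0.05 on day 29, and 0.10 (adjusted p = 0.855) on day 29 without them. Apln changed by 0.15 and 0.20, the latter 0.00 without both mice, with mouse 95 the highest at 9.36. Aplnr changed by -0.41 ± 0.21 on day 15 and -0.15 on day 29, and without both mice by -0.41 (0.334) and -0.30 (0.421). Its other probe set changed by -0.69 and -0.48 with all mice, and by -0.69 (0.243 over probe sets) and -0.68 (0.194) without both. Ramp2 changed by 0.07 and 0.14, the latter 0.23 ± 0.10 with a 95% interval of 0.01 to 0.44 (adjusted p = 0.297) without both mice. The endothelial level of mice 82 and 95 was 0.77 and 0.70, against -0.30 to -0.04 in the other mice of that day, and their adipocyte level was 0.81 and 0.99. The part of cell types in these values was not tested.

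In liver no member was called under either agent. After troglitazone 0 of 7 members were called on day 15 and 0 on day 29 (limma), where 0.022% and 0.115% of all genes were called. At an unadjusted p below 0.05 there were 0 members on both days. Groups did not overlap for 1 member on day 15, Apln, where 2.09% of all genes did not overlap, and for 0 members on day 29 (1.07%). Apln stood at 8.02, 8.14, 8.05, 8.13 and 7.62 in vehicle mice of day 15 and at 8.21, 8.17, 8.23, 8.22 and 8.54 in troglitazone mice. The gap between the groups was under 0.1, and the change of 0.28 ± 0.14 did not pass (adjusted p = 0.957). Ramp1 changed by -0.26 on day 15 and 0.28 on day 29, and its other probe sets by 0.12 and -0.01 on day 15 and 0.21 and 0.02 on day 29.

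After Elmiron 0 members were called on either day, where 0% and 0.0055% of all genes were called. At an unadjusted p below 0.05 there were 2 members on day 15 and 1 on day 29 (limma), a looser threshold than that of the calls. Ramp2 of day 15 stood at 8.95, 9.11, 9.30, 9.30 and 9.16 in vehicle mice and at 9.52, 9.45, 9.40, 9.68 and 9.51 in Elmiron mice. It was the 1 member whose groups did not overlap on day 15, where 1.06% of all genes did not, and on day 29 there were 0 (1.43%). Its change was 0.35 ± 0.11 (unadjusted p = 0.00473, adjusted p = 0.715, limma). A Calcrl probe set other than the gene's own changed by -0.57 ± 0.13 on day 29 (adjusted p = 0.437 over probe sets), where the gene's own changed by -0.09. That other probe set was dim, brighter on average than 8.3% of single-symbol probe sets.

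Adm was the member at an unadjusted p below 0.05 on both days of Elmiron. It stood at 7.46, 7.46, 7.74, 7.87 and 7.72 in vehicle mice and at 7.83, 7.85, 7.96, 8.08 and 8.70 in Elmiron mice of day 15, a change of 0.43 ± 0.21 (adjusted p = 0.908). On day 29 it stood at 6.80, 7.23, 6.24, 7.15 and 7.40 in vehicle mice and at 7.78, 6.92, 7.91, 7.46 and 7.71 in Elmiron mice, a change of 0.59 ± 0.21 (0.53). The other Adm probe set changed by 0.26 on day 15 and -0.03 on day 29, so the change of day 29 was seen with 1 of the 2 probe sets. On each day at least 1 of the treated mice lay within the vehicle range. Mouse 55, the highest of day 15, had an acute inflammation level of 1.67. Mouse 92, the lowest treated mouse of day 29, had a log2 intensity of 9.64 for Ucp1 and 8.09 for the adipocyte gene Adipoq, and the part of these in the result was not tested.

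Beyond the members, the same 4 lists held 0 called genes in the 4 comparisons of liver and the 2 of brown fat (limma). Of the 8 adrenomedullin and 7 apelin genes, 0 to 2 per comparison were at an unadjusted p below 0.05, of the 22 cyclic AMP and nitric oxide genes 0 to 3, and of the 23 hypoxia targets 1 to 5.

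The effects were also set against each other. For the difference of the troglitazone effect between brown fat and liver, 0 of 7 members were called on day 15 and 0 on day 29. Over all genes 0.022% and 0.0165% were called. At an unadjusted p below 0.05 there was 1 member on day 15 and 2 on day 29 (limma). The differences farthest from 0 on day 29 were -1.20 ± 0.37 for Ramp1 (adjusted p = 0.537) and -0.71 ± 0.18 for Ramp3 (0.268), and without mice 82 and 95 they were -0.98 (0.150) and -0.56 (0.162). By their numbers 15 mice gave both tissues, and with the animal as a replicate block these were -1.19 (0.641) and -0.71 (0.309). Without mice 82 and 95 the other Ramp1 probe sets differed by -0.37 and -0.19 on day 29 (adjusted p = 0.664 and 0.764 over probe sets, limma). Between troglitazone and Elmiron in liver 0 members were called on either day, where 0.0055% and 0.0934% of all genes were called. On each day 1 member was at an unadjusted p below 0.05 (limma). Between days 0 members were called for brown fat, for liver after troglitazone and for liver after Elmiron. Over all genes 0% were called in all 3. In each, 1 member was at an unadjusted p below 0.05 (limma). A p above the threshold leaves these effects neither equal nor different.

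Between brown fat and liver of vehicle mice, Ramp2, Ramp1, Aplnr, Ramp3 and Apln were higher in brown fat and Calcrl was lower. In the 10 vehicle mice per tissue of the troglitazone study, 5 members were called higher in brown fat and 1 lower, where 76.1% of all genes were called, 31.6% higher and 44.5% lower. The median difference of the 7 was 0.97, beside -0.13 over all genes. Ramp2 was 2.0 ± 0.13 higher in brown fat (adjusted p = 1.82e-16), Ramp1 1.45 ± 0.18 (8.21e-09), Aplnr 1.37 ± 0.12 (1.06e-12), Ramp3 0.97 ± 0.09 (7.15e-12) and Apln 0.48 ± 0.11 (1.47e-04). The difference of Calcrl was -0.61 ± 0.16 (7.67e-04), and Adm did not pass (0.30 ± 0.22, 0.212). Without mice 82 and 95, the Calcrl difference was -0.77, that of Ramp2 1.87 and that of Adm 0.09, and 6 members were again called. The other Adm probe set then differed by -0.18 (adjusted p = 0.0269 over probe sets, limma), opposite in sign to the gene's own.

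Probe sets of 1 gene did not always give the same tissue difference. The other Aplnr probe set lay at 10.47 to 11.74 in vehicle brown fat and at 4.03 to 5.01 in the livers of that study, a difference of 6.26 ± 0.21 (adjusted p = 2.42e-25 over probe sets, of which 74% were called), against 1.37 with the gene's own. For Calcrl the other probe sets gave -0.00 (0.981) and -0.26. For Ramp1 they gave -0.31 and -0.15 (0.00917 and 0.0409), opposite in sign to the 1.45 of the brighter one. These other probe sets were dimmer. On average those of Ramp1 were brighter than 24.8% and 43.4% of single-symbol probe sets, against 70.9% for the gene's own. Those of Calcrl were brighter than 36.8% and 8.3%, against 44.4% for the gene's own. Directions for Calcrl and Ramp1 between these tissues are therefore given for the probe set named and are not shown for the gene as a whole.

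**Figure D4:**
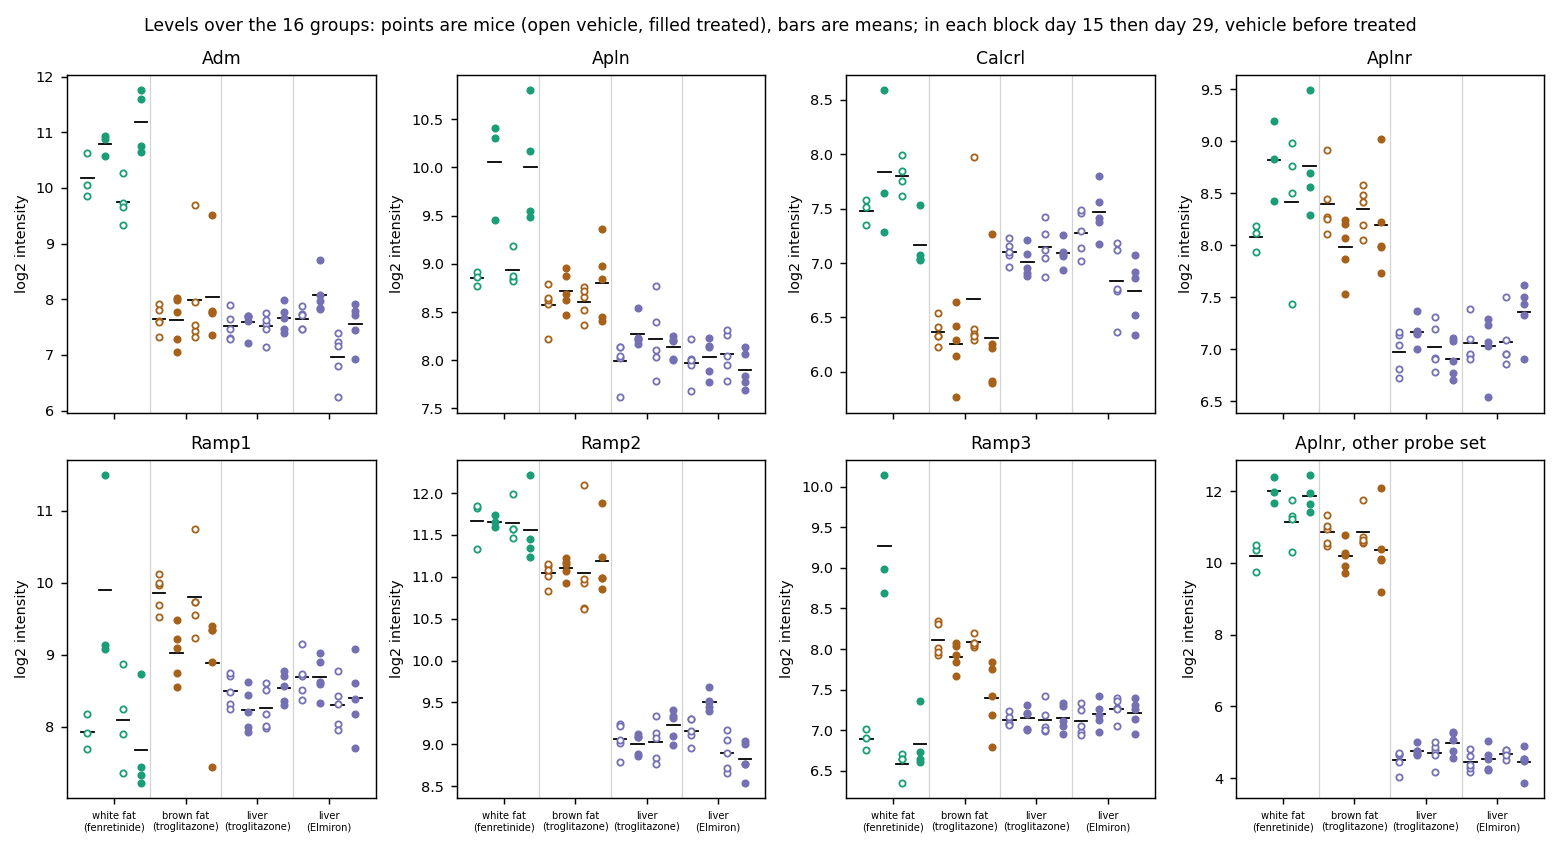
Levels of the 7 genes and the other Aplnr probe set over all 16 groups: log2 intensity (y axis) of each mouse (open points vehicle, filled points treated) and group means (bars), with white fat, brown fat and the 2 liver studies as blocks on the x axis. Adm of white fat lies at 9.33 to 11.76, above nearly all other libraries, and Ramp2 of both fat tissues lies above all livers.

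Over all 16 groups, the highest mean of each of the 7 members, with the probe set that stood for the gene, was that of a white fat group, though white fat was measured only in the fenretinide study, so that tissue and study cannot be told apart. For Adm the order began with the 4 white fat groups, at means of 11.19 (fenretinide day 29), 10.80 (fenretinide day 15), 10.17 and 9.75 (vehicle), each overlapping its neighbour. A gap followed to the next group by mean, Elmiron liver of day 15 at 8.08, and the other liver and brown fat groups ran on to 6.96 with overlapping neighbours. Brown fat mice 82 and 95 of day 29, at 9.69 and 9.51, lay within the range of vehicle white fat of day 29 (9.33 to 10.27). For Apln the fenretinide groups, at 10.06 and 10.00, were separated from vehicle white fat at 8.93 and 8.85, after which brown fat (8.81 to 8.58) and liver (8.27 to 7.90) followed in order with overlapping neighbours.

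Ramp2 fell into 2 levels, with the 8 fat groups at means of 11.66 to 11.04 and the 8 liver groups at 9.51 to 8.82 and a gap between them. The other Aplnr probe set did the same, with fat at 12.01 to 10.18 and liver at 4.98 to 4.45. With the gene's own probe set Aplnr ran from 8.81 to 7.98 in fat and from 7.36 to 6.91 in liver. Ramp3 was highest in fenretinide white fat of day 15 at 9.27, separated from the next group, vehicle brown fat at 8.11. Below came the rest of brown fat (8.09 to 7.40), liver (7.27 to 7.11) and, last, the other white fat groups (6.89 to 6.59), among them fenretinide white fat of day 29 at 6.84.

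Ramp1 showed a like order, with fenretinide white fat of day 15 at 9.91, brown fat at 9.86 to 8.89, liver at 8.69 to 8.24 and the other white fat groups at 8.09 to 7.68. All neighbours in that order overlapped, and the first place rests on mouse 59 at 11.50, since the other 2 mice of that group were at 9.14 and 9.08. The other Ramp1 probe sets and 1 of the other Calcrl probe sets had their highest means in liver, at 6.30, 7.12 and 5.15. These were dimmer, brighter on average than 24.8%, 43.4% and 8.3% of single-symbol probe sets. Calcrl was highest in fenretinide white fat of day 15 (7.84) and vehicle white fat of day 29 (7.80), then came the other white fat and liver groups (7.48 to 6.74), and brown fat was lowest (6.67 to 6.25). Neighbours overlapped except vehicle white fat of day 29 and the next, vehicle white fat of day 15, whose ranges were 7.62 to 7.99 and 7.35 to 7.58. Levels are compared within a probe set only, since the arrays give no level per molecule.

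The brighter 50% of genes were ranked by Pearson's r of their deviations with those of each member over the 74 arrays. Deviations were taken from the mean of all arrays of the same tissue and study. The r values therefore include differences between treated and vehicle mice and between days. The genes most alike are given as a description, since these arrays share libraries and probes share backgrounds. For Adm they were Vasp (0.75), Adamts1 (0.74) and the endothelial gene Mmrn2 (0.73). For Apln they were Tmem88 (0.65), Rflnb (0.64) and the Notch target Hey1 (0.60). For Calcrl they were Rcn1 (0.85), Wls (0.77) and Csrp1 (0.76), for Ramp2 Slc43a3 (0.82), Igfbp7 (0.81) and the basement membrane gene Nid1 (0.80), and for Aplnr N4bp3 (0.62), Tmem88 (0.56) and D17H6S56E-5 (0.53). For Ramp3 they were Hook1 (0.86), Mal (0.84) and Bag2 (0.83), and for Ramp1 Bag2 (0.76), Cystm1 (0.74) and Tpd52l1 (0.74). The values for Ramp3 were highest in white fat, at 0.95, 0.95 and 0.96. Elsewhere they ran from -0.26 (Hook1 in troglitazone liver) to 0.69 (Hook1 in brown fat). Bag2 was at 0.62 in brown fat and 0.60 in Elmiron liver, and Mal at 0.59 in troglitazone liver. Those for Apln were also highest in white fat, with Tmem88 at 0.93 there and 0.14 to 0.19 elsewhere and Rflnb at 0.85 and 0.04 to 0.45. Hey1 was at 0.74 in white fat, 0.63 in troglitazone liver, 0.36 in brown fat and 0.11 in Elmiron liver. Those for Ramp2 were 0.92 to 0.94 in brown fat, 0.52 to 0.92 in liver and 0.34 to 0.41 in white fat. Cystm1 with Ramp1 was 0.91 in white fat, 0.59 in brown fat and 0.02 in Elmiron liver. Within the 7 genes the closest pairs were Ramp1 with Ramp3 (0.73), Calcrl with Ramp2 (0.69) and Adm with Ramp2 (0.55). Brown fat mice 82 and 95, with the highest Adm, Calcrl and Ramp2 of their groups, are among the 74 arrays. Their part in these r values was not tested.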

How the data were processed

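Total RNA was extracted with Trizol and hybridised as biotin-labelled cRNA to Affymetrix mouse arrays, per the labels. The authors deposited 1 table of intensity values per probe set, made with RMA (robust multi-array averaging) per the submitters' processing notes with no version stated there. Intensities ran from 7.44 to 39426, and log2 was taken. Every gene was represented by its brightest single-symbol probe set on average. With limma 3.58.1 in R 4.3.3, each tissue and study was fitted with 1 mean per group, without a filter on dim genes, and p-values were adjusted by Benjamini-Hochberg over 18193 genes; comparisons of tissues or agents used both fits' arrays together. The script was tested on simulated data. Within groups, 138 pairs of arrays correlated at 0.914 to 0.996, with 0 identical. The 7 members and the gene lists (186 of 202 entries measured) were chosen with earlier results of these data known. List levels are means of log2 deviations from the vehicle mice of the same day. Genes named were the members, list genes that were called, and the 3 genes most alike to each member; Vegfa was chosen after its values were seen. Of the 15 mice with both tissues, 1 had deviations correlated over 0.1 between brown fat and liver (range -0.135 to 0.151). The number of arrays limits the precision.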

Additional observations from a re-analysis of the deposited data

Results flagged for a closer look

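The fenretinide effect on Ramp3 in white fat differed between days: it was -2.13 log2 units on day 29 relative to day 15, by a test of the difference itself in limma. Single mice were also compared with the rest of their group in 98 sets of 1 gene and 1 group of 4 or 5 mice, by the gap to the nearest mouse over the range of the group, a rule that by chance marks about 1 set in 20. It marked 15 sets. In brown fat of day 29, vehicle mouse 82 was the highest for Adm (9.69), Calcrl (7.98) and Ramp2 (12.10), and troglitazone mouse 95 was the highest for Adm (9.51) and Calcrl (7.27) and the lowest for Ramp1 (7.44). These are the libraries low in Ucp1 and Zic1. Vehicle mouse 84 of that day was the highest for Ramp3 (8.20). In white fat of day 29, fenretinide mouse 91 was the highest for Calcrl (7.53), fenretinide mouse 93 for Ramp1 (8.73) and Ramp3 (7.36), and vehicle mouse 86 for Apln (9.18); all 3 mice were among those with high Ucp1. In liver of day 15, Elmiron mouse 55 was the highest for Adm (8.70), troglitazone mouse 52 the lowest for Adm (7.21), troglitazone mouse 56 the highest for Apln (8.54) and vehicle mouse 46 of that study the lowest for Apln (7.62).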

How the results depend on the processing

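Each of 66 results, 49 of them changes of single members, was recomputed under 5 to 8 other settings and with each mouse left out in turn. Settings without brown fat mice 82 and 95, or without the 4 white fat mice of day 29 with the highest Ucp1, were chosen after seeing the data. In white fat of day 15 the 2 calls became 0 with the brighter 50% of genes, which holds fewer members, and 1 over probe sets, with the trended and robust fit or with the 2 groups fitted alone (Apln at 0.0502, 0.0513, 0.0524 and 0.0749); array weights gave 3, adding Ramp1, and leaving out 1 mouse gave 1 to 2. On day 29 the 1 call became 2 with array weights (Apln at 0.0499), 0 with the 2 groups alone and 0 without the 4 mice; leaving out 1 mouse gave 0 to 1. The 1 call of the difference between days became 0 with the brighter genes and without the 4 mice, and 0 to 1 with 1 mouse left out. With array weights 1 member was called in brown fat of day 15 (Ramp1, -0.89, 0.0158) and 1 in the troglitazone effect of brown fat minus liver on day 29 (Ramp3, -0.73, 0.0285), where 0 were before. The 6 calls between brown fat and liver became 3 with the brighter genes. With the mean of a gene's probe sets, Adm in brown fat of day 29 turned to -0.000145 and the troglitazone minus Elmiron difference of Aplnr on day 29 to 0.057. Leaving out 1 mouse turned the sign of uncalled changes: Calcrl in white fat of day 15 (-0.0158 to 0.636), Ramp2 in white fat (-0.169 to 0.0827 on day 15, -0.306 to 0.0254 on day 29), and in brown fat Adm (-0.12 to 0.12 and -0.323 to 0.472), Calcrl of day 15 (-0.212 to 0.0076) and Ramp2 of day 29 (-0.0358 to 0.401). The replicate block of animals changed no call and left 6 members called between the tissues. The cause of these shifts was not tested, beyond the smaller number of genes or mice where a setting drops them.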
